A study of Cucumis melo with 4 samples.

Results

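The 4 unigenes described here carry a deposited label that names a MADS-box protein of flowering time, out of 76260 unigenes (transcripts assembled from the reads) in all and 11737 with a label. They were taken as a given list by unigene number, and 4 other unigenes with these labels or that of the relative AGL19 are described after them. Unigene14776_All and Unigene18466_All are labelled MADS-box protein SVP, Unigene27087_All is labelled MADS-box protein SOC1, and Unigene11635_All is labelled MADS-box transcription factor 50; the ending of the names is left out from here on. RNA-seq of melon (Cucumis melo) compared 4 sex types with 1 library each, so no sex type has a replicate. Monoecious plants (AAGG; male and female flowers), gynoecious plants (AAgg; female flowers only), hermaphrodite plants (labelled aaGG; bisexual flowers only) and andromonoecious plants (labelled aagg; male and bisexual flowers) were sampled. The headers of the authors' locus tables exchange the last genotypes and give andromonoecious aaGG and hermaphrodite aagg, so the g allele is called labelled here. Each library is a bulk of RNA from recombinant inbred lines and from mixed tissues: leaves of seedlings with 2 true leaves, axillary buds together with young leaves 1 week after transplanting, flower buds shorter than 2 mm, and older buds before flowering. In such a bulk, fewer cells of a type and less RNA per cell cannot be told apart, nor can stages. By the sample titles 3 libraries ran on 1 flow cell and the hermaphrodite library alone on a second, so flow cell and hermaphrodite sex type cannot be told apart.

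MADS-box proteins bind DNA as dimers and larger complexes. In Arabidopsis, SVP (Short Vegetative Phase) represses flowering and holds down the florigen gene FT and SOC1. SOC1 (Suppressor of Overexpression of Constans 1) integrates light, age, gibberellin and vernalization inputs and promotes flowering, and both genes also act in the young flower. MADS50 is the rice relative of SOC1 and promotes flowering there, and AGL19 belongs to the same clade in Arabidopsis. In melon, young flowers start with both stamen and carpel primordia, and the loci a and g act on which of them stop growing.

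The deposited labels were checked first, and the check went against taking them as the identity of the unigenes. The authors' BLAST table, from which 11140 of the 11737 labels can be read, has 11805 rows with 11805 different melon coding sequences (CDS) and as many different unigenes, in order of product name. In 477 places neighbouring rows held the same identity, length, mismatches, gaps, CDS positions and bit score over at least 100 nt. In 258 of these the product names differed. Positions on the unigene were not compared. Of neighbouring rows whose unigene numbers lay within 5 of each other, 49.3% ended at the same CDS position, against 7.21% of other neighbours. Rows 50 apart shared all the compared alignment values in 0.0% of pairs.

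**Figure D1:**
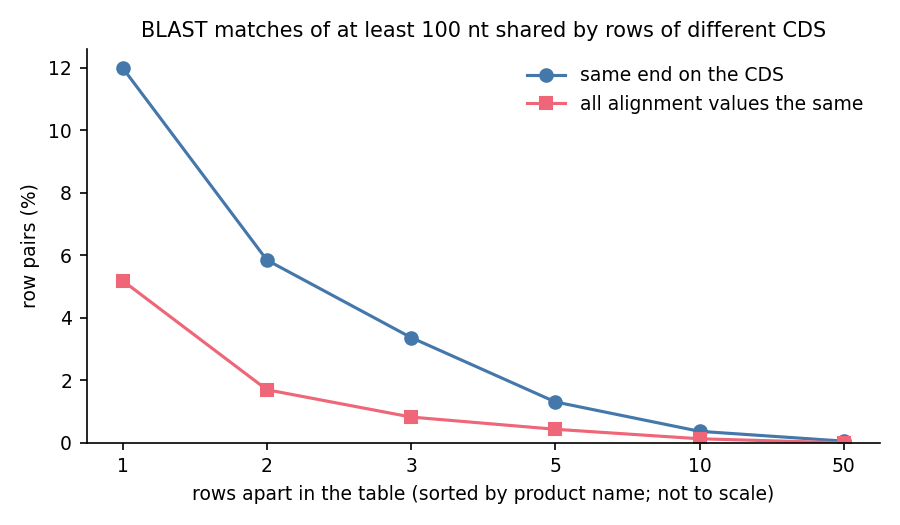
Percent of row pairs in the authors' BLAST table against the distance between the rows, for matches of at least 100 nt. Circles are pairs that share the end of the match on the CDS. Squares are pairs that share all compared alignment values, which leave out the positions on the unigene. At a distance of 1 row 12% shared the CDS end and 5.19% all compared values, and at 50 rows 0.0546% and 0.0%.

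The rows of the flowering-time labels show the same. Unigene34961, labelled SOC1, and Unigene64727, labelled CMB1, have different CDS but the same 85.37% identity over 540 nt from CDS position 135 to 674. The listed positions on the unigene differ, 971 to 432 and 764 to 225. The SVP rows of Unigene61699 and Unigene14776 name different CDS and both end at CDS position 929. Unigene14776 matched its CDS at 100% identity over 410 nt (CDS positions 520 to 929), and Unigene18466 at 97.94% over 534 nt (1 to 525). Unigene11635 matched at 99.84% over 628 nt (1527 to 2154), which is 39.9% of its 1575 nt. Unigene27087 is 1 of 597 labelled unigenes with no row in that table.

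Levels by label and the authors' own lists were looked at too. Chlorophyll a-b binding proteins are known as products of some of the most abundant leaf transcripts, yet the 10 unigenes so labelled had a median level of 1.75 RPKM (reads per kilobase of transcript, scaled to a common library size; 0.293 to 15.8), against 2.64 for all labelled unigenes. Other leaf labels lay higher, with a median of 12.4 RPKM for 5 Rubisco (ribulose bisphosphate carboxylase) labels (5.16 to 55.9) and 3.66 for 16 photosystem labels (0.0627 to 55.2). None of the 29 labelled unigenes among the 100 with the highest level carried a chlorophyll a-b binding, Rubisco or photosystem label. Of 1049 unigenes in the authors' deposited table for gynoecious against monoecious plants, 233 had a CDS in the library files and 16 (1.53% of the 1049) had the same CDS in both. The measurements below therefore belong to the unigene numbers; whether each unigene encodes the named protein was not tested. The tissue markers are found by the same labels and carry the same limit.

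The library totals were between 25.51 and 27.04 M reads, and 66492 to 69811 unigenes had at least 1 read. Reads were recovered as whole numbers from the deposited RPKM. All 4 unigenes passed the filter on low counts, but 3 of them had no more than 170 reads over all libraries. Summed over the 31 unigenes with leaf labels the level was 313 to 357 RPKM, with 0 to 3 of them at 0 in a library, and over the 2 with carpel or ovule labels 3.27 (monoecious, 1 of 2 at 0) to 10.2 (andromonoecious). All intervals are exact at 95% and cover counting error only.

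The repressor label stood on 2 unigenes, both with their highest RPKM in the hermaphrodite library. Unigene14776 (474 nt) was covered by 36 reads in the monoecious, 39 in the gynoecious, 57 in the hermaphrodite and 38 in the andromonoecious library, that is 2.88, 3.15, 4.45 and 3.14 RPKM. The hermaphrodite library was highest and the other 3 lay close together. The ratio of hermaphrodite to gynoecious reads, scaled by TMM (a correction of library size for composition), was 1.40 (0.915 to 2.16), and that to the monoecious library was 1.40 (0.905 to 2.18). All 6 pair intervals of this unigene included 1, so no order of the libraries was detectable at this depth.

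Unigene18466 (562 nt) was covered by 13 monoecious, 13 gynoecious, 70 hermaphrodite and 23 andromonoecious reads, or 0.877, 0.887, 4.61 and 1.60 RPKM. The hermaphrodite library stood above the other 3. It was 4.75-fold (2.61 to 9.37) above the monoecious, 5.15-fold (2.83 to 10.2) above the gynoecious and 2.51-fold (1.55 to 4.21) above the andromonoecious library. The andromonoecious library came next, at 1.90-fold (0.921 to 4.07) the monoecious and 2.06-fold (0.998 to 4.42) the gynoecious level, neither apart from 1. The andromonoecious and hermaphrodite libraries (aa) thus did not overlap the AA ones, and the closest libraries of the sides differed 1.81-fold in RPKM. In the same hermaphrodite library the summed level of 15 unigenes labelled for shoot meristem and dividing cells was 507.7 RPKM, against 339.5 to 431.6 in the others, with none at 0 in any library. The 9 labelled for anther and pollen summed to 197.9 against 127.5 to 147.8, again with none at 0. Both sums are of RPKM without TMM scaling. The median of all labelled unigenes was also higher there, at 2.73 RPKM against 2.43 to 2.52 in the others. The part of tissue make-up and of the flow cell in the level of Unigene18466 was not tested.

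The integrator label SOC1 stood on Unigene27087 (575 nt), with 30 monoecious, 38 gynoecious, 30 hermaphrodite and 8 andromonoecious reads, or 1.98, 2.53, 1.93 and 0.545 RPKM. The andromonoecious library was the low one. Its level was 0.245 of the gynoecious (0.0986 to 0.532) and 0.286 of the monoecious level (0.113 to 0.638), and the hermaphrodite library was 3.09-fold (1.38 to 7.80) above it. Those 3 pairs hold fewer than 50 reads each, the number below which pairs were not counted. Between the gynoecious, monoecious and hermaphrodite libraries the ratios were within 0.755 to 1.17 and each interval included 1. By RPKM both aa libraries were below both AA ones, but the hermaphrodite and monoecious levels that set the gap differed only 1.02-fold.

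Unigene11635, labelled with the rice SOC1 relative MADS50, had the most reads of the 4: 89 monoecious, 301 gynoecious, 81 hermaphrodite and 210 andromonoecious. These are 2.14, 7.33, 1.90 and 5.23 RPKM. The gynoecious and andromonoecious libraries, labelled gg, were both above the monoecious and hermaphrodite ones, labelled GG, with 2.44-fold between the closest of the sides. The gynoecious library was 3.12-fold (2.45 to 4.00) and the andromonoecious 2.53-fold (1.96 to 3.28) above the monoecious. The hermaphrodite level was 0.258 of the gynoecious (0.199 to 0.330) and 0.318 of the andromonoecious level (0.243 to 0.412). Within the labelled gg side the andromonoecious library was at 0.811 of the gynoecious (0.676 to 0.970), and within the labelled GG side the hermaphrodite was at 0.803 of the monoecious (0.587 to 1.10). With the genotypes of the locus table headers, the gg libraries are the gynoecious and hermaphrodite ones, and by that reading the sides of Unigene11635 overlapped. That grouping is the same as sex types without against with male flowers. By the headers, g genotype and male flowers thus cannot be told apart in any unigene.

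**Figure D2:**
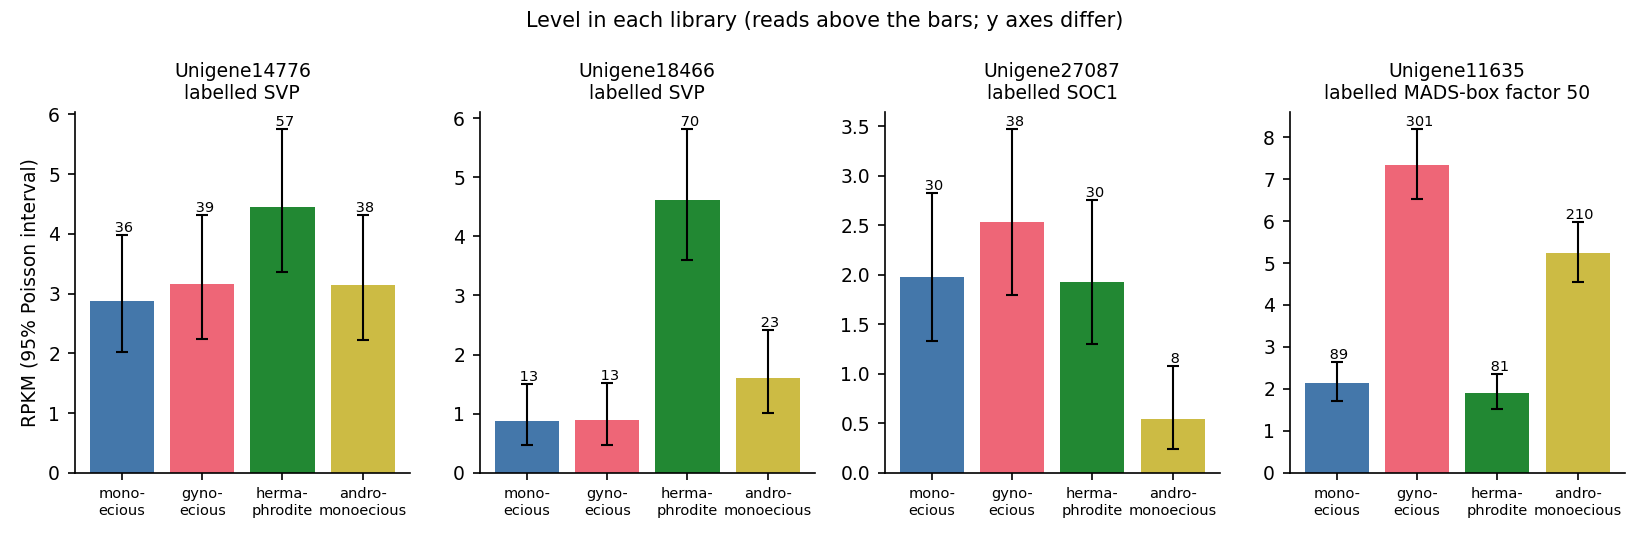
RPKM of the 4 unigenes in each library, with exact 95% Poisson intervals and the reads above the bars; each panel has its own axis from 0. Unigene18466 is highest in the hermaphrodite library (4.61), Unigene27087 lowest in the andromonoecious (0.545), and Unigene11635 highest in the gynoecious (7.33) and andromonoecious (5.23).

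Members at least 2-fold apart in a pair of libraries were counted beside all unigenes. Hermaphrodite over monoecious had 1 of 4 (Unigene18466), where 23.2% of all unigenes with 50 reads were apart. Gynoecious over monoecious had 1 of the 3 with 50 reads (Unigene11635; 36.6% of all), and andromonoecious over monoecious 1 of 2 (Unigene11635; 21.8%). Hermaphrodite over gynoecious had 2 of 4, Unigene18466 higher and Unigene11635 lower (27.1% of all). Hermaphrodite over andromonoecious had the same unigenes apart, 2 of 3 (20.7% of all), and andromonoecious over gynoecious had 0 of 2 (27.9% of all). Pairs that share a library are not independent, and 1 library per sex type allows no test.

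**Figure D3:**
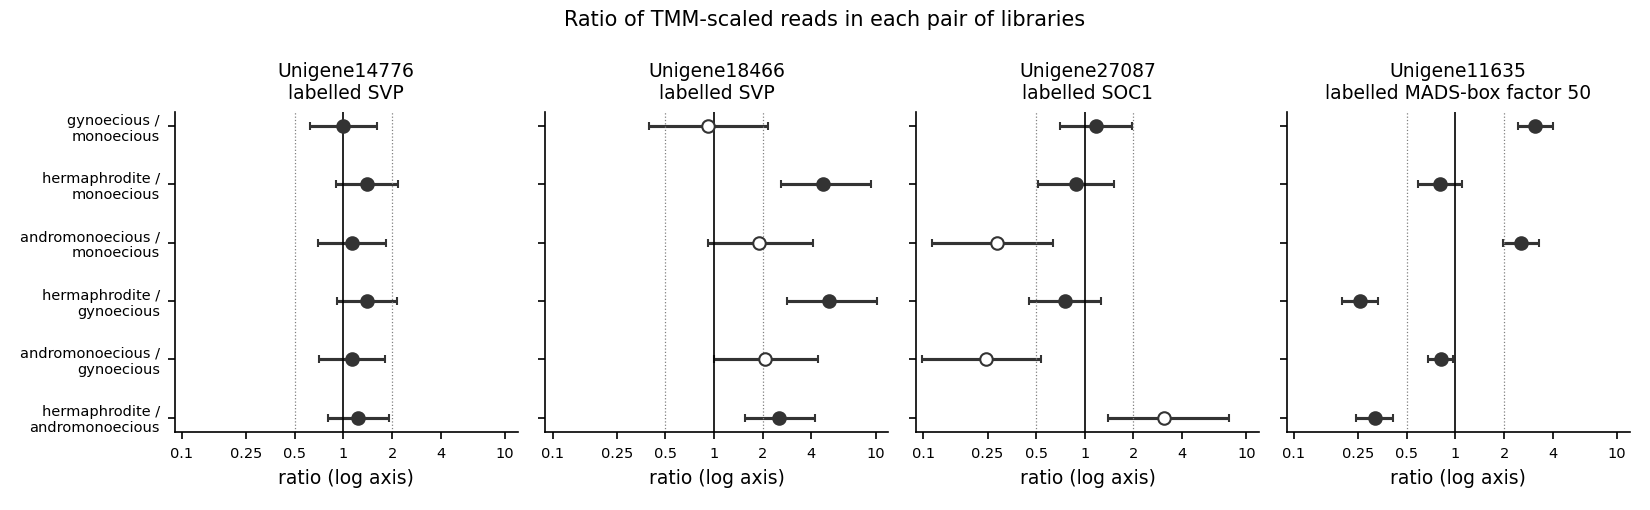
Ratio of TMM-scaled reads in the 6 pairs of libraries, on a log axis, with exact 95% binomial intervals; open circles are pairs under 50 reads and dotted lines mark 2-fold. Every interval of Unigene14776 includes 1, while Unigene11635 lies at 3.12 and 2.53 over the monoecious library and at 0.258 and 0.318 for hermaphrodite over gynoecious and andromonoecious.

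Tests were possible only for splits of 2 libraries against 2, on log2(RPKM + 1) with limma across 49238 unigenes and Benjamini-Hochberg adjustment. This scale understates the change of low unigenes. The spread of each side then holds the other locus as well as library noise. In the a locus split 0 of 4 members passed (0.0122% of all unigenes did), in the labelled g locus split 0 of 4 (0.0% of all), and in the split by male flowers 0 of 4 (0.00203% of all). On the recovered reads edgeR passed 0 of 4 members in each split (0.0% of all unigenes in the a locus split, 0.0% in the labelled g and 0.0% in the male flower split). DESeq2 passed 0 of 4 in the a locus split (0.0745% of all), 0 of 3 in the labelled g locus split (0.0883% of all; Unigene27087 had no adjusted p there) and 0 of 4 in the male flower split (0.76% of all). At an unadjusted limma p under 0.05, Unigene11635 was alone among the members, in the labelled g split, where 5.14% of all unigenes were past that value (2.86% in the a split and 8.31% in the male flower split, with 0 members in either).

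In the labelled g split Unigene11635 was higher by 1.25 ± 0.48 (SE, log2 scale) in the gg libraries, with a limma p of 0.0307 and an adjusted p of 0.918. edgeR's quasi-likelihood test gave an adjusted p of 0.931 and DESeq2 one of 0.343 for it. In the a locus split Unigene18466 was higher in aa by 1.02 ± 0.55 (limma adjusted p = 1, Benjamini-Hochberg over all unigenes), and the value was 0.47 without the hermaphrodite library. Unigene27087 had -0.61 ± 0.53 there (limma adjusted p = 1), and -0.15 without the andromonoecious library. In the split by male flowers the 4 members lay between -0.58 and -0.15, with limma adjusted p from 0.753 to 0.962. By the locus table headers this split is also that of the g locus, and Unigene11635 had -0.15 ± 0.63 in it. The median of all unigenes was -0.12 in that fit, and with TMM factors the members lay between -0.49 and -0.03.

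Sides of a split that did not overlap in RPKM were counted too. This held for 2 of 4 in the a split (Unigene18466 higher and Unigene27087 lower in aa; 25.2% of all unigenes), for 1 of 4 in the labelled g split (Unigene11635; 34.8% of all) and for 1 of 4 in the male flower split (Unigene14776, by a closest fold of 1.00; 39.9% of all). On the TMM-scaled reads the sides of Unigene14776 overlapped in the male flower split and not in the a split, where aa was higher. The other 3 members kept their state in each split. The share of all unigenes was counted on RPKM only, so none stands beside these states. Every pair interval of Unigene14776 included 1.

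**Figure D4:**
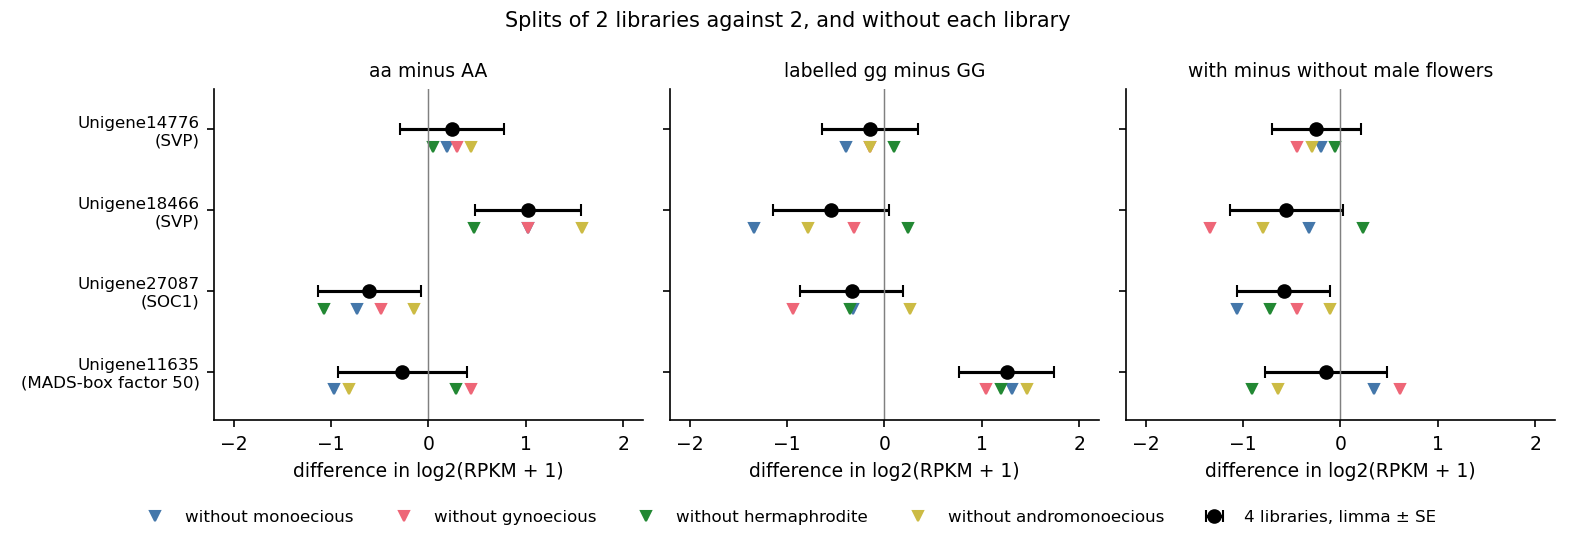
Difference in log2(RPKM + 1) between the sides of each split for the 4 unigenes (circles, limma ± SE) and the same with 1 library left out (triangles, coloured by the library removed). Unigene11635 keeps between 1.04 and 1.46 in the labelled g split whichever library is left out, and Unigene18466 goes from 1.02 to 0.47 in the a split without the hermaphrodite library.

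Other unigenes with the same CDS or with labels of this group did not share one pattern. The SOC1 CDS of Unigene27087 also labels Unigene34961 and Unigene56880 in the library files. Unigene34961 held 5 reads in the monoecious, 48 in the gynoecious, 25 in the hermaphrodite and 17 in the andromonoecious library, highest in the gynoecious library at 1.75 RPKM and lowest in the monoecious at 0.180. Unigene56880 had 38, 29, 17 and 27 reads in that order, highest in the monoecious library at 2.84 RPKM and lowest in the hermaphrodite at 1.24. Of the 3 unigenes with this 1 CDS, each was thus lowest in a different library by RPKM. The hermaphrodite low of Unigene56880 was not apart from the gynoecious library (0.561, 0.289 to 1.06). Against the andromonoecious library it was 0.519 (0.265 to 0.987), and both pairs hold fewer than 50 reads.

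The authors' deposited tables put the same labels on further unigenes. There SOC1 stands on Unigene16342, with 30 monoecious, 9 gynoecious, 6 hermaphrodite and 31 andromonoecious reads, and SVP on Unigene41698, with 36, 8, 16 and 21 reads; the library files give neither a label. Both were above in the monoecious and andromonoecious libraries, the sex types with male flowers, by a closest fold of 3.30 and 1.39 in RPKM, a split in which 39.9% of all unigenes did not overlap. Both stand in a list chosen by the authors on these libraries for a difference between gynoecious and monoecious. That part of the pattern is given by the choice. A SOC1 row with the length and reads of Unigene16342 also stands in their list for hermaphrodite against andromonoecious. For Unigene16342 both parts are thus given by the choice. For Unigene41698 the hermaphrodite level was 0.628 of the andromonoecious (0.306 to 1.26), not apart from 1. The SOC1-labelled Unigene34961 went the other way by RPKM, lower in the sex types with male flowers by a closest fold of 1.39. Its hermaphrodite level was 1.21-fold (0.629 to 2.39) the andromonoecious, not apart from 1 and on fewer than 50 reads. For gynoecious over monoecious the authors' deposited table lists a log2 ratio of -2.63 for the SOC1 row (FDR 5.56e-08). The RPKM of that row give -1.72. For the SVP row it lists -2.15 (FDR 6.33e-05). Of its 1058 rows, 69.7% list the log2 ratio of their own RPKM within 0.01. Whether a listed FDR belongs to the RPKM of the same row was not tested. For hermaphrodite over andromonoecious the authors' deposited table lists -2.45 for SOC1 (FDR 5.58e-05), in the row with the reads of Unigene16342. Unigene27087 and Unigene18466, which carry the same CDS in the library files, had a ratio of 1.17 (0.705 to 1.95) and 0.922 (0.394 to 2.16) for gynoecious over monoecious.

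A further SVP label is on Unigene61699, with 2 monoecious, 1 gynoecious, 9 hermaphrodite and 7 andromonoecious reads, too few to pass the filter. Unigene41731, labelled AGL19, was the most abundant of these unigenes per length, with 973 monoecious, 2336 gynoecious, 764 hermaphrodite and 1132 andromonoecious reads, or 44.4, 107.9, 34.0 and 53.5 RPKM. Its order of libraries was that of Unigene11635: gynoecious first, then andromonoecious, monoecious and hermaphrodite. Gynoecious over monoecious was 2.21-fold (2.05 to 2.39) and andromonoecious over monoecious 1.25-fold (1.14 to 1.36), with a closest fold between the labelled g sides of 1.20. Its match to the CDS covers 25.4% of the unigene.

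**Figure D5:**
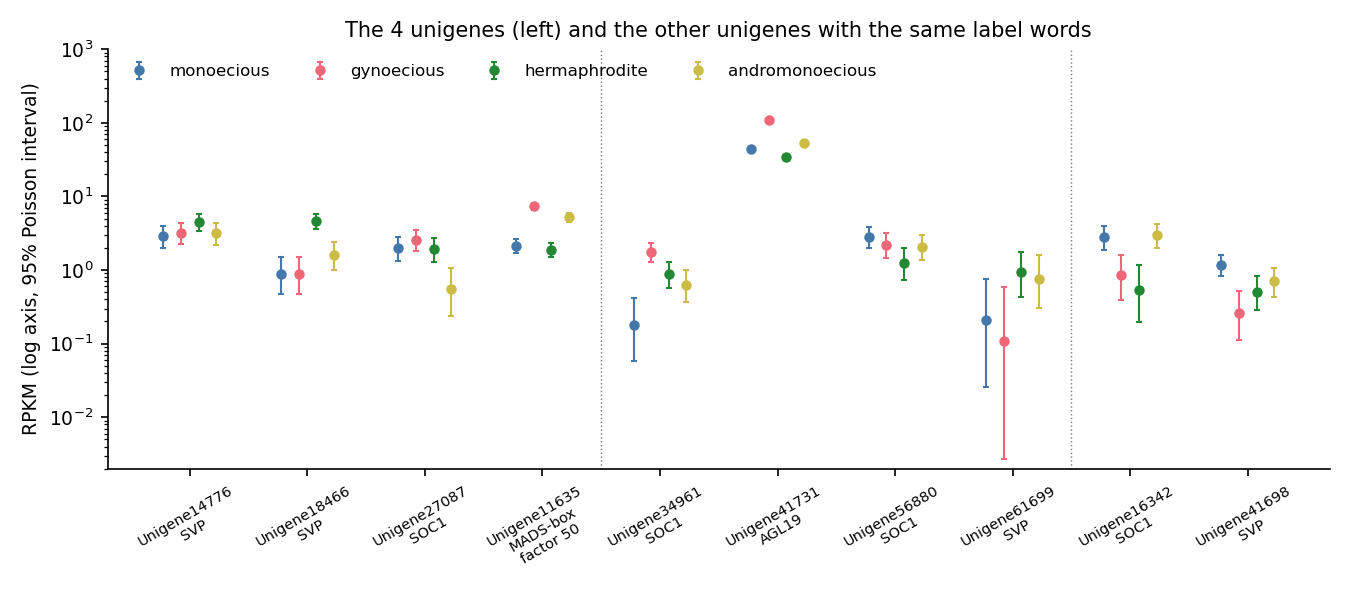
RPKM (log axis, exact 95% Poisson intervals) of the 4 unigenes, of 4 others in the library files (3 labelled SOC1 or SVP and 1 AGL19), and of the 2 labelled SOC1 or SVP in the authors' tables, by library. Unigene41731 lies between 34.0 and 107.9 RPKM, and the rest at 7.33 or less.

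Likeness of profiles was measured as the root mean square difference of log2(RPKM + 1) after centring each unigene on its mean over the 4 libraries, where 0 is the same pattern. Among the 4 members the values ran from 0.465 (Unigene14776 and Unigene18466, the SVP labels) to 1.13 (Unigene18466 and Unigene11635). Unigene14776 was about as close to the SOC1-labelled Unigene27087 (0.468) as to the other SVP label. Unigene11635 was closer to the AGL19-labelled Unigene41731 (0.272) than to the SOC1 labels of the library files. Those were at 0.479 (Unigene34961), 0.637 (Unigene56880) and 0.842 (Unigene27087). Among 2456 or 2457 well matched labelled unigenes, the nearest to Unigene14776 was Unigene48845, labelled as a KH domain protein (0.0066), a low unigene at 0.506 to 1.12 RPKM that was not among the 3 nearest with a pseudocount of 0.1. For Unigene18466 it was Unigene27420, an F-box label, with 16, 11, 64 and 31 reads (0.173). For Unigene27087 it was Unigene6924, a methylmalonate-semialdehyde dehydrogenase label, with 37, 46, 40 and 6 reads (0.0659). For Unigene11635 it was Unigene31979, a pyruvate dehydrogenase component label, with 17, 93, 16 and 53 reads (0.119). The 4 libraries are too few for a correlation.

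Flowering-time inputs and outputs around these genes were counted by words in the labels, with the same limit on identity. The 6 lists held 89 unigenes, of which 68 were tested in the splits, and limma called 0 of them in any split; 1, 3 and 7 were at an unadjusted p under 0.05 in the a, labelled g and male flower splits, or 1.47%, 4.41% and 10.3% of the 68 against 2.86%, 5.14% and 8.31% of all unigenes. At 2-fold or more, 24 of 59 with 50 reads (40.7%, against 36.6% of all) were apart in gynoecious over monoecious, 11 higher and 13 lower, with a median log2 ratio of -0.02 (-0.0035 over all). In hermaphrodite over monoecious 15 of 57 were apart (26.3%, against 23.2% of all), 3 higher and 12 lower. In hermaphrodite over andromonoecious 12 of 55 were apart (21.8%, against 20.7%), 2 higher and 10 lower. In the other pairs the share was below that of all unigenes. It was 11 of 58 (19%, against 21.8%) in andromonoecious over monoecious, 4 higher and 7 lower. Hermaphrodite over gynoecious had 12 of 54 (22.2%, against 27.1%), 6 higher and 6 lower. Andromonoecious over gynoecious had 16 of 58 (27.6%, against 27.9%), 11 higher and 5 lower. Higher and lower were not counted apart over all unigenes, so the directions have no share beside them. The median log2 ratio was 0.0096 (0.0092 over all) in hermaphrodite over monoecious. It was -0.175 (-0.0199 over all) in hermaphrodite over andromonoecious.

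For each list the unigene with the most reads and the one with the largest spread are given, or the next in reads where 1 unigene led both. Among light and clock inputs, CONSTANS-LIKE 6 (Unigene33454; a relative of CONSTANS, which carries day length to FT in Arabidopsis) showed 8593 reads in the monoecious, 3549 in the gynoecious, 8134 in the hermaphrodite and 11777 in the andromonoecious library, and CONSTANS-LIKE 12 (Unigene16262) 463, 287, 551 and 1657. Both had the andromonoecious library highest and the gynoecious lowest. In the autonomous and vernalization list, the MSI4 label (Unigene4999; a WD-40 protein of the autonomous pathway) had 8561, 10208, 10496 and 12179 reads, and the FPA label (Unigene21397; an RNA-binding protein of that pathway) 1254, 642, 560 and 634. The FPA-labelled unigene was thus highest in the monoecious library.

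The florigen family list held the FD label (Unigene44740; the bZIP partner of FT), with 6725, 7520, 6249 and 8108 reads, and CEN-like protein 1 (Unigene58925), with 1, 3, 0 and 10. In the age pathway list the SPL11 label (Unigene6498), an E3 ubiquitin ligase caught by the word and not an SPL transcription factor, had 3221, 482, 1561 and 1095 reads, and squamosa promoter-binding-like protein 7 (Unigene41696) 704, 1768, 1145 and 907. The gibberellin list was led in both respects by gibberellin 3-beta-dioxygenase 1 (Unigene18761; the last step to active gibberellin), with 4842, 519, 29 and 2240 reads, followed by a gibberellin 20 oxidase (Unigene32555; an earlier step) with 621, 1945, 1248 and 1299. The floral list had 10708 reads in all for a putative MADS-box protein (Unigene20792), at 2207, 2647, 2107 and 3747, and its largest spread was in the AGL21 label (Unigene27231), at 309, 18, 56 and 77. The monoecious library was highest for Unigene6498, Unigene18761 and Unigene27231 and lowest for Unigene41696 and Unigene32555.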

How the data were processed

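RPKM per unigene was deposited by the authors for each library, and for the aligner and the assembler a name is not given in the sources used here. The authors' deposited lists also hold raw read counts, log2 ratios and p-values with FDR, and their deposited BLAST table percent identity and a bit score. A further 32 per-library columns of lists were not used. Whole reads were recovered from RPKM with the library totals in the file headers, taking the shortest length of 200 to 20000 nt that gave whole reads in all 4 libraries. This held for 100% of unigenes, and 996 of 1049 (94.9%) matched the authors' listed counts and length. A longer true length gives more reads.

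Splits were tested with limma 3.58.1 (trend, log2(RPKM + 1), filterByExpr minimum count 10), the trend being set after a first fit without it, with edgeR 4.0.16 and DESeq2 1.42.0 as alternatives, all tested on simulated data. With 1 bulk per sex type, p-values reflect the spread of these bulks alone; an exact permutation of 2 against 2 cannot go below p = 0.333. Pairs used TMM-scaled reads (prior count 1, at least 2-fold, 50 reads) with Clopper-Pearson intervals. Named unigenes are the members, those with the same CDS or label words, the nearest profiles (at least 100 reads, 95% identity, 100 nt, 30% of the unigene), and per list those with most reads and largest spread; of these the first of each was printed. SPL and RGA were matched as symbols, after the first matches were seen. Members and lists were chosen with earlier results of these data known.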

Additional observations from a re-analysis of the deposited data

Results flagged for a closer look

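For 5 unigenes the ratios of the 2 backgrounds pointed opposite ways, so that the a locus contrast (hermaphrodite over monoecious against andromonoecious over gynoecious), the labelled g contrast (gynoecious over monoecious against andromonoecious over hermaphrodite), or both changed direction. Only the members and the unigenes with labels of this group that passed the low filter were looked at. The share of all unigenes with such opposite ratios was not counted, so none stands beside this number. The difference between the log2 ratios has the same size in either contrast, and with 1 library per sex type it was not tested. It was 1.85 for Unigene27087, where gynoecious over monoecious was 0.22 and andromonoecious over hermaphrodite -1.63 on the log2 scale; the interval of the first included no change. Of the unigenes with the same labels, it was 3.42 for Unigene34961, -1.45 for Unigene56880, -4.50 for Unigene16342 and -2.96 for Unigene41698. For Unigene34961, Unigene16342 and Unigene41698 the intervals of both a locus ratios excluded 1. The authors listed Unigene16342 for both labelled g contrasts on these libraries, and Unigene41698 for gynoecious over monoecious. The differences of Unigene16342 and Unigene41698 are thus partly given by that choice. For Unigene11635 the same difference was -0.01, with 1.64 and 1.65 for the labelled g ratios. These backgrounds follow the sample labels. By the locus table headers the g ratios are gynoecious over monoecious and hermaphrodite over andromonoecious. Their signs were then the same in each of the 5 unigenes and opposite in Unigene11635. The a ratios are then andromonoecious over monoecious and hermaphrodite over gynoecious. These differed in sign for Unigene34961, Unigene16342, Unigene41698 and Unigene11635.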

How the results depend on the processing

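No member was called in any split under any alternative run: RPKM pseudocount 0.1, TMM or DESeq2 scaling, no low filter, edgeR, DESeq2 (no adjusted p for Unigene27087 in the labelled g split), or 1 library left out. With a library left out, 1 side is a lone library assumed to vary like the other side, so those fits say little of stability. The number of all unigenes called moved. In the a locus split it was 6, and 3 with pseudocount 0.1, TMM factors, DESeq2 size factors or no filter, 0 with edgeR, 26 with DESeq2, and 0 to 539 with a library left out. In the labelled g split it was 0, then 30 with DESeq2 and 0 to 849. In the male flower split it was 1, then 0 with pseudocount 0.1, no filter or edgeR, 280 with DESeq2, 46 with the other locus as a block, and 0 to 352.

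Of 48 log2 changes of members with a library left out, 8 changed sign, none of them called. Unigene11635 ranged from -0.97 to 0.44 in the a split and from -0.91 to 0.61 by male flowers. For the labelled g locus Unigene14776 ranged from -0.39 to 0.10, Unigene18466 from -1.34 to 0.24 and Unigene27087 from -0.93 to 0.26. Unigene18466 ranged from -1.34 to 0.23 in the male flower split. No paired analysis was possible because the sex types share only replicate number 1. The other locus as a block (chosen after seeing the data, 1 residual degree of freedom) called no member and left 6 and 0 unigenes in the a and labelled g splits.

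At 4-fold, members apart numbered 0 in gynoecious over monoecious (11.5% of all unigenes), 1 in hermaphrodite over monoecious (4.54%), 0 in andromonoecious over monoecious (4.31%), 1 in hermaphrodite over gynoecious (5.74%), 0 in andromonoecious over gynoecious (7.39%) and 0 in hermaphrodite over andromonoecious (3.53%). Without the read minimum they numbered 2 in andromonoecious over monoecious (41.5% of all), 1 in andromonoecious over gynoecious (41.9%) and 3 in hermaphrodite over andromonoecious (38.3%). The other pairs kept their numbers of members. There 49.4% of all were apart in gynoecious over monoecious, 41.5% in hermaphrodite over monoecious and 41.7% in hermaphrodite over gynoecious. No member's pair ratio left its interval under the authors' totals, DESeq2 size factors or prior count 0.25, although the authors' totals moved the median of all unigenes by up to 0.20 in size (-0.20, andromonoecious over gynoecious). Restricting the lists to well matched unigenes left fewer of them (55 of 89), with 14 of 35 apart in gynoecious over monoecious (40%), 9 of 36 in hermaphrodite over monoecious (25%), 8 of 36 in andromonoecious over monoecious (22.2%), 6 of 34 in hermaphrodite over gynoecious (17.6%), 10 of 35 in andromonoecious over gynoecious (28.6%) and 7 of 35 in hermaphrodite over andromonoecious (20%). The share apart over all well matched unigenes was not counted. With pseudocount 0.1, 2 of the 3 nearest profiles of Unigene14776, 2 of Unigene18466, 0 of Unigene27087 and 1 of Unigene11635 were shared. The cause was not tested. With a minimum of 300 nt, chosen after seeing the data, 3.17% of neighbouring rows shared all compared alignment values, against 5.19%. The member unigenes labelled SVP and SOC1 rest on 106 to 170 reads each.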
